A study of Homo sapiens with 4 samples.

Results

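The subject is the level of each transcript on all 4 expression arrays of the series, as a picture of the A549 cell line, an established human lung adenocarcinoma line, and not of any treatment. The 4 samples are the whole series, 1 array each, and 18255 named genes were ranked on them. All cells were A549 cells at 48 h, and the RNA came from transfected cells. The siCtrl array held cells given a control siRNA and the siPML array cells given an siRNA named for PML. The vector array was labelled as vector overexpression and the WDR4 array as WDR4 overexpression. No untransfected culture is among the 4. Values are given per array, and with 1 array per group no difference between arrays was tested or can be assigned to a treatment.

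Each gene was represented by the probe that carried its symbol alone and was brightest on average, and genes were ranked by the lowest of their 4 intensities. A gene was called bright when its intensity was at or above the upper quartile of all 31741 probes on every array, which lay at 620 on siCtrl, 620 on siPML, 715 on the vector array and 709 on WDR4. It was called dim when it was at or below the lower quartile on every array, at 19.4, 23.5, 19.99 and 26.5 in the same order. By these rules 5186 genes were bright, 28.4% of those named, and 2880 were dim, 15.8%. The remaining 10189 lay between. Rank correlations between pairs of arrays ran from 0.968 to 0.993 across genes, which are not independent replicates. Probes differ in how well they bind, so an intensity orders the signals of probes and not the numbers of transcripts.

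In an established line such as A549, most messenger RNA comes from genes that nearly all growing cells use, those for ribosomes, the cytoskeleton, energy supply and protein turnover. Lineage genes add the cell's identity. A549 cells are often used as a stand-in for the surfactant-producing type II cell of the lung alveolus. They are also known for a lost CDKN2A locus and for an altered KEAP1, the protein that marks the transcription factor NRF2 for degradation.

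**Figure D1:**
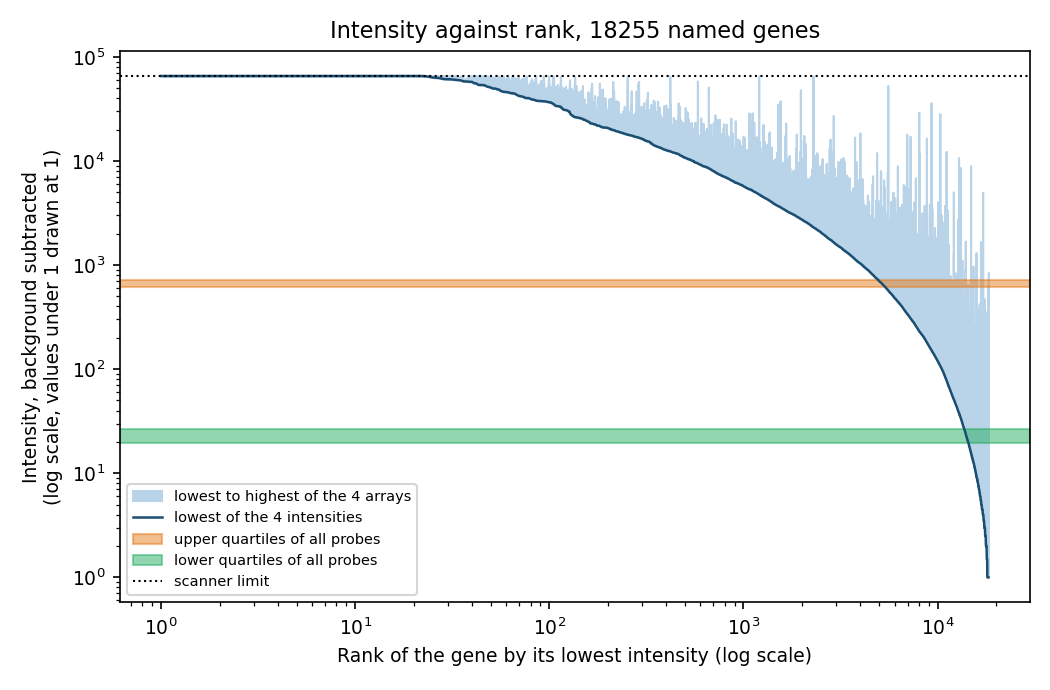
Intensity (log scale), taken to be background-subtracted, against the rank of each of 18255 named genes (log scale). The dark line is the lowest of the 4 arrays and the pale area reaches to the highest. The curve is flat at the scanner limit for the first 23 genes and crosses the upper quartiles of all probes, the orange band, near rank 5186.

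A small number of genes carried much of the signal. The 100 genes highest in rank held 16.9% of the summed intensity of named genes on siCtrl, 17.5% on siPML, 15.9% on the vector array and 16.6% on WDR4. The first 1000 held between 55.4% and 60.6%. The highest value on each array was 65567 on siCtrl, 65734 on siPML, 65556 on the vector array and 65516 on WDR4. These lie close to 65535, the largest number a 16-bit reading can hold, and above it on every array but WDR4. A value there is a lower bound, and genes that share it cannot be ordered.

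At or above 65000 on all 4 arrays were 23 genes, 0.126% of those named, and another 42 were there on some arrays but not all. Of the 23, 8 encode ribosomal proteins, namely RPL8, RPL28, RPL35A, RPL39, RPLP1, RPS23, RPS25 and RPS27. The other members work beside the ribosome or in unrelated tasks. TPT1 is a small growth-related protein bound to translation factors, and NPM1 is a nucleolar chaperone of ribosome assembly. ENO1 is the enolase of glycolysis, UBB encodes ubiquitin, FTL is the light chain of the iron store ferritin, and CSTB inhibits cathepsins. TMSB10 binds actin monomers, S100A6 and ANXA1 bind calcium, and H4C3 is a histone H4 gene whose protein many gene copies encode. MIF is a secreted cytokine, PLIN2 coats lipid droplets and ID1 blocks helix-loop-helix transcription factors. AKR1C3 reduces steroids and other carbonyls, and ALDH1A1 oxidizes retinal to retinoic acid.

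Where a gene at the limit had other probes, these were dimmer on average, which the choice of the brightest probe fixes in advance. Such further probes existed for 8 of the 23 genes, while 15 had 1 probe. TPT1 gave 52560 to 62081 on its second probe and RPL39 gave 30641 to 42562. The second probe of AKR1C3 read 83.3 to 106 over the arrays, and the dimmest of NPM1 read 127 to 305. AKR1C3 belongs to a family of near-identical genes with AKR1C1 and AKR1C2, so that its signal may hold theirs. Across the table, 1999 genes with several probes had a bright probe, and 170 of them also had a dim one.

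Vertebrate messenger RNAs for ribosomal proteins and several translation proteins begin with a cytosine and a run of pyrimidines, the terminal oligopyrimidine tract through which the growth regulator mTOR controls their translation. The starts of 9 genes at the limit are shown because this run stands out in them. Each sequence covers 35 bases before and 20 bases after the annotated RefSeq start, 5′ to 3′ on the gene's strand, in GRCh38.p14, and the capitals mark the pyrimidine run.
RPL28: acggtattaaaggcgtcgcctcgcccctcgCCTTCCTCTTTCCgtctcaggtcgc
TPT1: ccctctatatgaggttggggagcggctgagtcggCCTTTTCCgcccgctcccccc
RPL35A: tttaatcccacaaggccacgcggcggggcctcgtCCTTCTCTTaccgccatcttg
RPS25: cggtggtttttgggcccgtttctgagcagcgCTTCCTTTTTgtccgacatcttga
RPLP1: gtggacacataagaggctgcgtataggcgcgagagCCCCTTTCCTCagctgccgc
RPS23: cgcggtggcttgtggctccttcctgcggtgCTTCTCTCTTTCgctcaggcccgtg
NPM1: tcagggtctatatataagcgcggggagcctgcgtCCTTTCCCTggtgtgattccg
RPL39: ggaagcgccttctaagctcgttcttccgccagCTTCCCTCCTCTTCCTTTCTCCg
RPS27: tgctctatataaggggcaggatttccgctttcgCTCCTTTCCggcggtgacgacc

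These stretches lie at chr19:55385897-55385951 on the plus strand for RPL28, chr13:45341164-45341218 on the minus strand for TPT1 and chr3:197950155-197950209 on the plus strand for RPL35A. RPS25 is at chr11:119018324-119018378 on the minus strand and RPLP1 at chr15:69452783-69452837 on the plus strand. RPS23 is at chr5:82278335-82278389 on the minus strand and NPM1 at chr5:171387814-171387868 on the plus strand. RPL39 is at chrX:119791611-119791665 on the minus strand and RPS27 at chr1:153990727-153990781 on the plus strand. A start of this kind was counted where a C followed by 4 C or T bases, on the gene's strand, began within 5 bases of the annotated start. It was found in 13 of 20 genes at the limit with a promoter in the table, 65%, and in 78.1% of 64 ribosomal protein genes. Among the 14579 named genes with a promoter the share was 22.3%, and among all 27305 promoters it was 21.1%. In the top 100 without ribosomal proteins it was 16 of 64, close to the 23.6% of bright genes and the 22.1% of dim genes. Within the ribosomal proteins, 34 of 45 bright genes had it, 75.6%, and 16 of 19 that were not bright, 84.2%. The share was no higher among the bright members of the family than among the others.

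Some abundant genes carried TATAAA, a form of the TATA box, the short element that positions the start of transcription. Related forms were not counted. TATATAA can be read in the stretches of NPM1 and RPS27 above and of the dim gene TNP2 below. The 4 shown here are among 5 genes of the top 100 that carry TATAAA, in capitals, in the same window. By their printed bases, ID1, RPS28 and S100A4 also met the rule for a pyrimidine start, and ANXA1 did not.
ID1: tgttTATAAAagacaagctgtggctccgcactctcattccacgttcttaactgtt
ANXA1: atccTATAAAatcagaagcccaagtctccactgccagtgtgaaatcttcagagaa
RPS28: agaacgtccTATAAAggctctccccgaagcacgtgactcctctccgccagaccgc
S100A4: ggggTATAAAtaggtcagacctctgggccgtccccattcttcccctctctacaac

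These lie at chr20:31605254-31605308 for ID1, chr9:73151830-73151884 for ANXA1 and chr19:8321461-8321515 for RPS28, all on the plus strand, and at chr1:153545787-153545841 on the minus strand for S100A4. Germ-cell genes at the bottom of the table are set beside them. These were the 3 genes of the sperm and meiosis list with the lowest intensities.
TNP2: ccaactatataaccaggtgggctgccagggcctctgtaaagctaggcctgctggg
ZPBP: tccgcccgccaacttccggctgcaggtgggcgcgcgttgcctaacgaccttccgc
AKAP4: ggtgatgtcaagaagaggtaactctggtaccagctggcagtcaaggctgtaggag

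TNP2, which packs sperm chromatin, is at chr16:11269306-11269360. ZPBP, a protein of egg binding, is at chr7:50093227-50093281 and AKAP4, of the sperm tail, at chrX:50200988-50201042, all 3 on the minus strand. The 300-base promoter of TNP2 held 0 CpG and that of AKAP4 held 1, whereas that of ZPBP held 25. Its ratio of observed to expected CpG, 0.806, lay within the middle 50% of bright genes, 0.736 to 0.964.

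The 30 genes that followed those at the limit had lowest intensities from 64420 for RPS21 down to 49486 for BLVRB. They were RPS21, RPL13A, RPL13, RPS28, COX6A1, RPS15A, TBCA, GPI, LDHA, RPS29, RPL38, SEC11A, RPS14, CA12, RPL37A, SNRPD2, PSMA4, RPS16, S100A4, COX6B1, ANXA4, AKR1C1, TXN, GAPDH, LDHB, DNALI1, RPL11, CTSL, IGFBP3 and BLVRB. Beside ribosomal proteins they hold glycolytic enzymes, subunits of cytochrome oxidase, a proteasome subunit and a splicing protein. CA12, a carbonic anhydrase of the cell surface, read 58679 on siCtrl, 58031 on siPML, 58484 on the vector array and 61075 on WDR4. DNALI1, an axonemal dynein light chain of cilia, read 62469, 59690, 57134 and 51322 in the same order. CTSL, the lysosomal cathepsin L, read 49779, 55544, 63018 and 55684, and IGFBP3, a secreted binder of insulin-like growth factors, read 49657, 59309, 51441 and 63612. None of these 4 was at the limit on any array. In the top 100, each of the 76 pairs of neighbouring genes below the limit on some array had overlapping ranges, which ranking on the lowest value nearly fixes. These ranges are over 4 differently treated cultures and not over replicates. The last genes inside the top 100 were CSF3, CXCL1 and PFDN5, a lowest intensity of 36545 for PFDN5, and the next ones outside were COX7B, HINT1 and BEX3, with 35933 for BEX3.

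**Figure D2:**
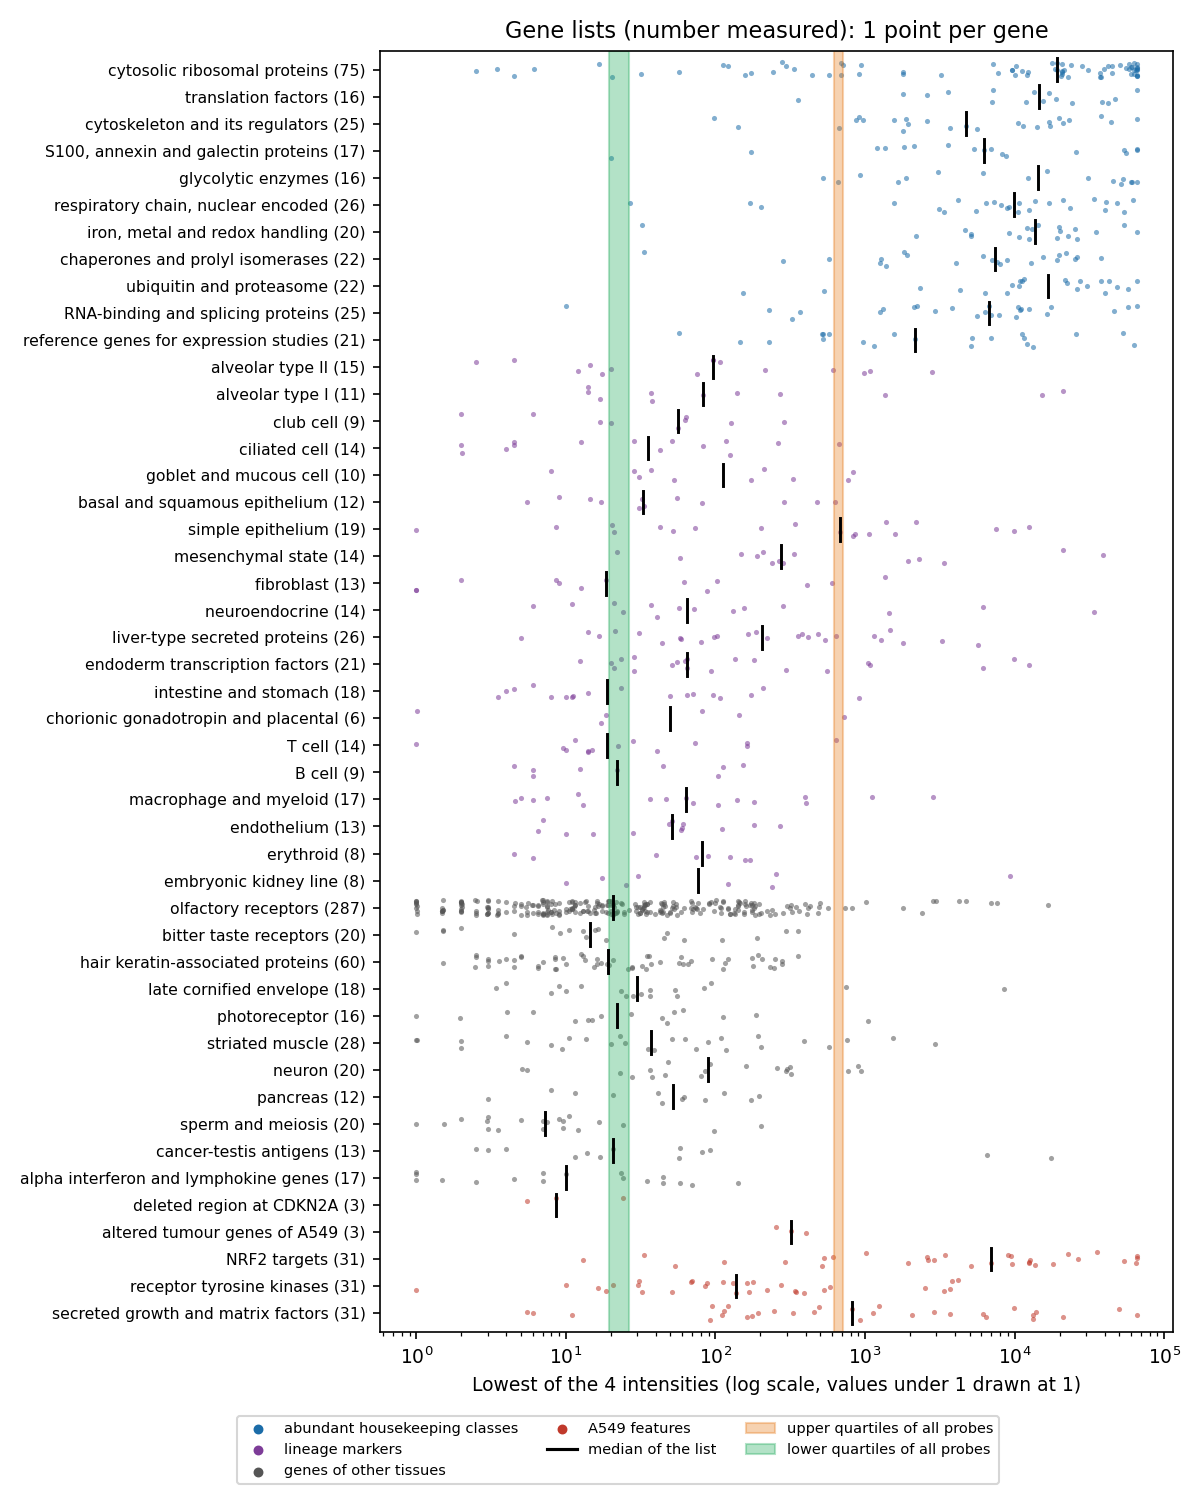
Lowest of the 4 intensities (log scale) of each gene in 47 lists, with the number of measured members in brackets and a black bar at the median. The medians of the 11 lists of abundant classes lie to the right of the upper quartiles of all probes (orange). Those of the 11 lists of other tissues lie from 7.26 to 88.7, on both sides of the lower quartiles (green). The highest of them, pancreas at 51.8 and neuron at 88.7, lie well to the right of that band.

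All 11 lists of abundant housekeeping classes had a larger share of bright members than the 28.4% of all named genes. The lists here and below were chosen with earlier results of these data known, so this outcome was in part set by the choice. Of 75 cytosolic ribosomal proteins measured, 54 were bright and 26 were in the top 100. Their median lowest intensity was 19093, at percentile 98.8 of all named genes. The family also held 3 dim genes, RPL3, RPL24 and RPS7. RPL3 read 4.49 to 7.49 units and RPL24 read 3.46 to 4.54, although both encode subunits of every cytosolic ribosome. RPLP0, a stalk protein used as a reference gene, read 57.4 on siCtrl, 62.2 on siPML, 89.6 on the vector array and 79 on WDR4. A dim value therefore cannot be read as a silent gene on this array.

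Of 16 translation factors, 15 were bright, and EIF5A at 355 to 699 was the exception. EEF1G, the gamma subunit of the elongation factor complex, read 46644 to 65732, and EEF1A1, which delivers aminoacyl-tRNA, read 24342 to 35006. A second EEF1A1 probe read 1078 to 3232. For the cytoskeleton, 23 of 25 genes were bright. TMSB4X, an actin-sequestering peptide, read 37741 to 48587, and MYL6, a myosin light chain, read 44465 to 62384. ACTB, the beta actin often used as a loading reference, was bright but lower, at 2231, 1825, 1571 and 1588 on siCtrl, siPML, vector and WDR4. CFL1, the actin-severing cofilin, read 97.5 to 157.

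Among S100, annexin and galectin proteins, 15 of 17 were bright. S100A4, which is associated with motility, read 55650 to 65732, and LGALS1, galectin-1, read 25777 to 34288. S100P differed more between arrays, with 6212 on siCtrl, 7705 on siPML, 24372 on the vector array and 23391 on WDR4. S100A14 was near the lower quartile, at 19.9 to 51.

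Genes for proteins of fermentation and of respiration were mostly bright. Of 16 glycolytic enzymes, 14 were bright and 6 were in the top 100. LDHA, which makes lactate, read 63390, 65732, 64567 and 60517 on siCtrl, siPML, vector and WDR4. LDHB, its partner subunit, read 65566, 65318, 53353 and 51598. GPI, ALDOA and GAPDH had lowest intensities of 60864, 45544 and 52710. PFKL and PGK1 were not bright, at 661 to 839 and 527 to 1944. Of 26 nuclear-encoded subunits of the respiratory chain, 23 were bright and 5 were in the top 100, led by COX6A1 at 61649 to 65732. UQCRB, ATP5F1A and NDUFA4 were the 3 that were not bright, and NDUFA4 read 26.7 to 89.9.

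Iron, metal and redox genes were bright in 19 of 20 cases. TXN, the electron donor thioredoxin, read 53582 to 65647, and GSTP1, a glutathione transferase, read 35111 to 65174. SOD2, the mitochondrial superoxide dismutase, read 25831 on siCtrl, 19853 on siPML, 57924 on the vector array and 57948 on WDR4. The exception was MT1E at 32 to 50.9. Chaperones were bright in 19 of 22 cases, and HSP90AB1, a cytosolic Hsp90, read 37801 to 54788. HSPA5, the Hsp70 of the endoplasmic reticulum, read 285 to 1206 and PDIA3 read 33.5 to 52.1. HSPA1A and HSPA1B are near-identical copies whose signals cannot be told apart.

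Protein turnover and RNA processing followed the same order. Of 22 ubiquitin and proteasome genes, 20 were bright and 6 were in the top 100, among them PSMA4 and PSMB6. Of 25 RNA-binding and splicing proteins, 21 were bright, with SNRPD2 at 57523 to 65732 and SNRPE, of the same core complex, at 10 to 20.6. Of 21 genes often used as references in expression studies, 14 were bright. Their lowest intensities spanned 57.4 for RPLP0 to 63337 for RPL13A. YWHAZ read 11778, 12655, 11612 and 12696, and HPRT1 spread from 2144 on siPML to 8720 on siCtrl.

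Genes of tissues unlike lung epithelium gave the other end of the scale. The 11 lists of such genes held 511 measured genes. Of these 202 were dim, 39.5% against 15.8% of all named genes, and 23 were bright, 4.5% against 28.4%. Their median lay at percentile 22.2. None of the 11 lists had a larger bright share than all named genes, and 10 had a larger dim share, the neuron list being the exception with 2 dim genes of 20.

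The 287 olfactory receptors, odorant receptors of the nose, served as a gauge of background. Their medians were 26.5 on siCtrl, 33.2 on siPML, 21.6 on the vector array and 36.5 on WDR4. Of them 115 were dim, 40.1% against 15.8% of all named genes. Their 95th percentiles lay at 578, 697, 584 and 609, below the upper quartile of all probes on 3 arrays and above it on siPML. Bright olfactory receptors numbered 12, 4.18% against 28.4% of all named genes. OR4D6 was the highest, with 17633, 23554, 16713 and 21003, followed by OR2T1 with 9627, 21036, 7677 and 10986. The others were OR4D9, OR1L1, OR1I1, OR10G2, OR11H6, OR9G4, OR51V1, OR10AD1, OR4C3 and OR9K2. Whether such a probe reads its receptor or another transcript was not tested.

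No bitter taste receptor of 20 and no hair keratin-associated protein of 60 was bright. Of them 9 and 23 were dim, 45% and 38.3%, against 15.8% of all named genes. The sperm and meiosis list had the lowest median of the 11, at 7.26 units, with 16 of 20 genes dim. PRM1 and TNP1, which pack sperm DNA, read 8.98 to 14 and 9.57 to 17.9 units. Alpha interferon and lymphokine genes were dim in 9 of 17 cases, 52.9%, and bright in none. Pancreas genes were dim in 3 of 12 cases, 25%, a small list nearer the 15.8%, and INS, insulin, read 196 to 227.

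Some genes of these lists were bright on all 4 arrays, in each list a smaller share than the 28.4% of all named genes. Of 18 skin envelope genes 2 were bright, KRT10, a keratin of differentiated skin, with 14973, 14721, 9916 and 8538, and LCE1E with 748 to 964, whose other probe read 1.03 to 3.0. Of 28 striated muscle genes 3 were bright, 10.7%, all of them troponins of thin filaments. TNNC1 read 5726, 5608, 2932 and 2953, TNNI3 read 1545 to 2530 and TNNT1 read 757 to 1262. The defining genes of muscle stayed low, with MYOD1 at 9.47 to 15.5 and TTN at 4.0 to 7.44.

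Of 20 neuronal genes, 3 were bright, 15% against the same 28.4%. They were RBFOX3, TH and SYT1, with lowest intensities of 944, 902 and 769. A second RBFOX3 probe read 257 to 442. RCVRN, the recoverin of photoreceptors, read 1053 to 1506 and was the bright gene among 16 of its list. Cancer-testis antigens, germ-cell proteins that tumours can make again, were bright in 2 of 13 cases, 15.4%. PRAME read 26261 on siCtrl, 17552 on siPML, 25019 on the vector array and 23364 on WDR4, while its other probes read 2855 to 4705 and 164 to 258. PAGE1 read 8409, 6773, 6492 and 9018. MAGEA4 read 13.9 to 21.5, and MAGEA1 read 91.4 to 195.

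**Figure D3:**
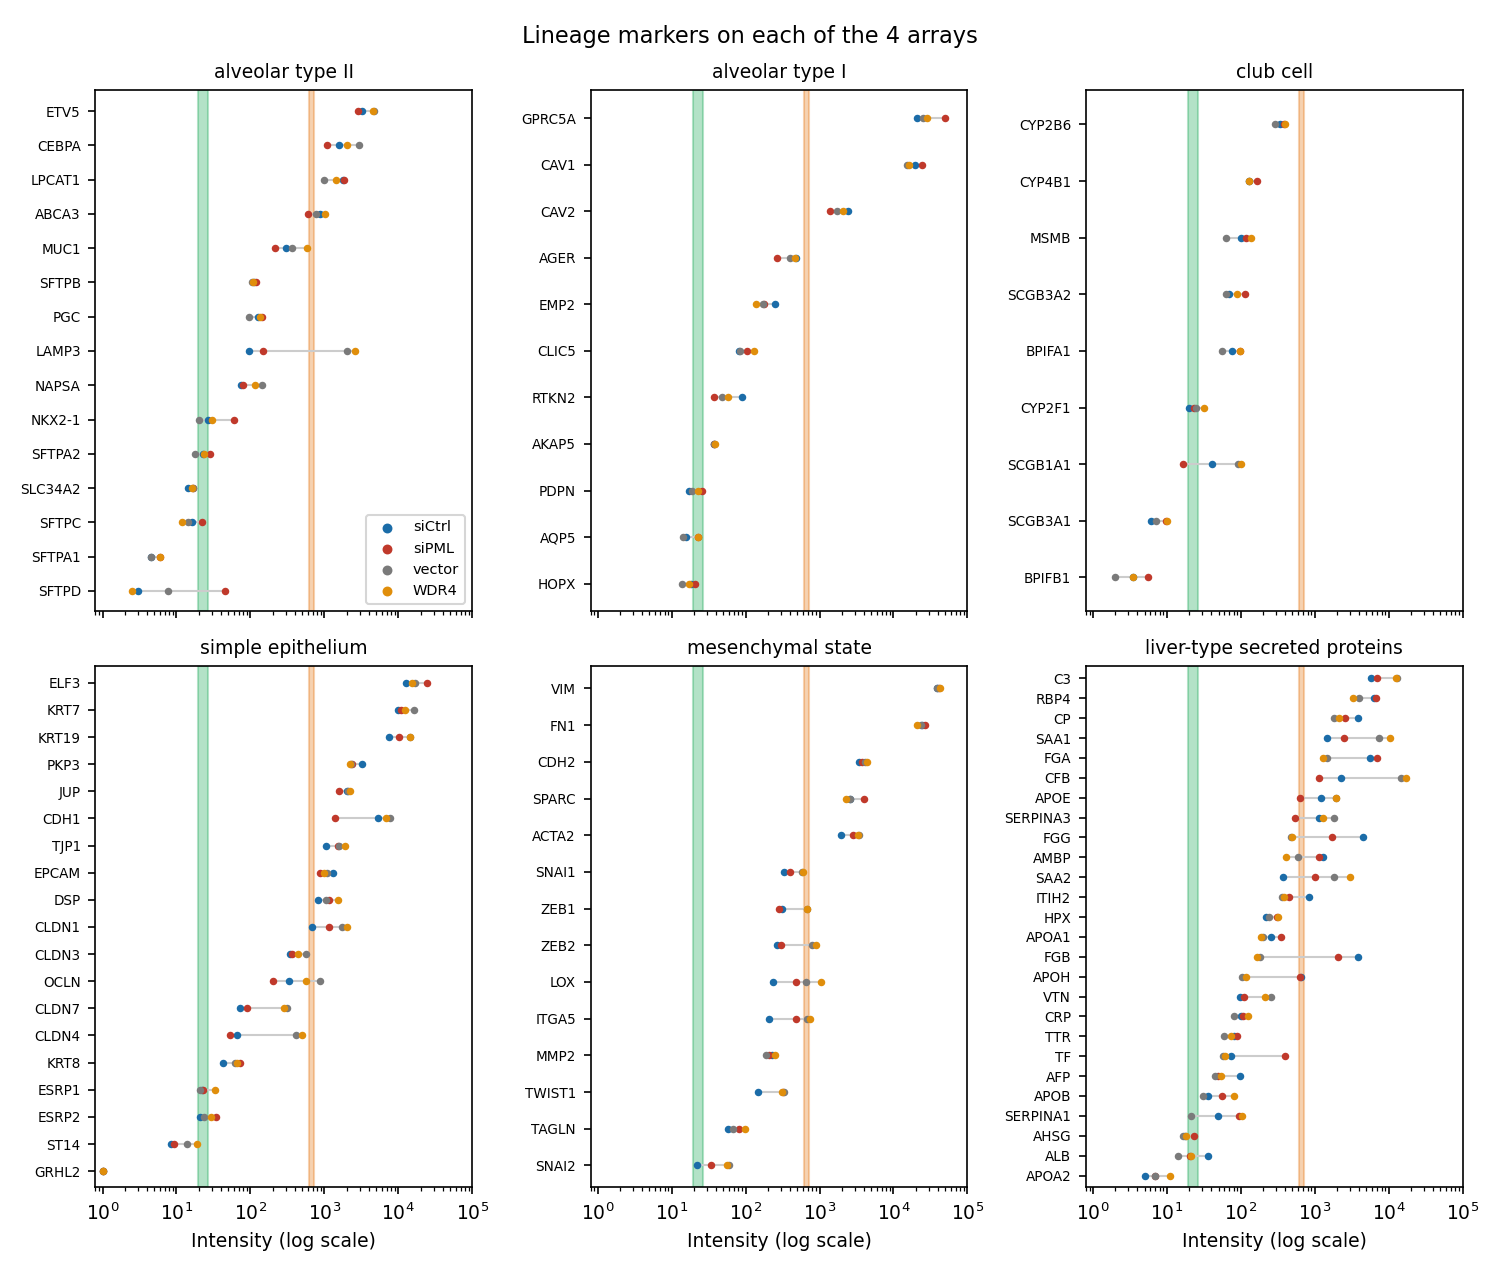
Intensity (log scale) of the measured markers of 6 lineage lists, 1 point per array and a grey line from the lowest to the highest. Simple epithelial and mesenchymal markers reach beyond the upper quartiles of all probes (orange band), while the surfactant genes lie below 120 units, at or near the lower quartiles (green band) apart from SFTPB.

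Among 20 lineage lists, 2 had a larger share of bright members than all named genes, simple epithelium with 10 of 19, 52.6%, and the mesenchymal list with 5 of 14, 35.7%. Simple epithelium was headed by ELF3, an epithelial Ets factor, with 12537 on siCtrl, 24706 on siPML, 17003 on the vector array and 15335 on WDR4. The keratins KRT7 and KRT19 read 9855 to 16456 and 7487 to 14534. CDH1, the epithelial cadherin, read 5311, 1374, 7828 and 6882 on siCtrl, siPML, vector and WDR4, lowest on siPML. PKP3, JUP and DSP of desmosomes, TJP1 and CLDN1 of tight junctions and EPCAM were bright as well. KRT8, the usual partner of such keratins, read 42.4 to 71.3, and the epithelial regulators ESRP1, ESRP2 and GRHL2 stayed under 35 units. GRHL2 was at or within 1 unit of 0 on all 4 arrays.

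Mesenchymal filaments and matrix were bright beside them. In RNA from a whole culture, a marker made by few cells and a marker made weakly by all cells cannot be told apart. VIM, vimentin, read 38862, 41246, 39367 and 42297 and was in the top 100. FN1, fibronectin, read 24094, 26331, 23565 and 20940 on one probe. Its other probe read -0.49, 0.53, 0.51 and 0, and FN1 fell in the middle class when the probes were averaged. CDH2, the neural cadherin, read 3374 to 4332, SPARC 2303 to 3939 and ACTA2 1946 to 3436. The transcription factors of that state were not bright, with ZEB1 at 285 to 686, SNAI1 at 333 to 604 and SNAI2 at 21.9 to 59.4. Fibroblast genes were bright in 1 of 13 cases, 7.69%, COL5A1 at 1356 to 1994, and COL3A1, COL1A2 and DCN stayed at 1.0 to 42.8 units.

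Of 15 alveolar type II markers measured, 3 were bright and 3 were dim, 20% each, against 28.4% and 15.8% of all named genes. The bright ones were ETV5, an Ets factor that maintains these cells, with 3271, 2808, 4745 and 4495, CEBPA with 1554, 1084, 2926 and 2039, and LPCAT1, which makes surfactant lipid, with 1768, 1862, 986 and 1418. A second ETV5 probe read 163 to 250, and ETV5 stayed bright when its probes were averaged. ABCA3, the lipid pump of lamellar bodies, came close to bright at 608 to 1026. The genes that define the cell did not reach that level. SFTPC, which encodes surfactant protein C, read 16, 22.4, 14.5 and 12 on siCtrl, siPML, vector and WDR4. SFTPA1 read 4.49 to 6.02, SFTPA2 read 17.6 to 28.4 and SFTPD read 2.50 to 45. SFTPB was at 113, 118, 107 and 109, and NKX2-1, the master regulator of lung epithelium, at 26.4, 59.8, 20 and 30. LAMP3, a lamellar body protein that interferon also induces, read 96.4 and 146 on siCtrl and siPML and 2025 and 2577 on vector and WDR4. The median of the list lay at percentile 41.8. The 5 surfactant protein genes and NKX2-1 were short of the bright class on every array, with the limit of single probes seen for RPL3.

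Alveolar type I markers were bright in 3 of 11 cases, 27.3%, near the 28.4% of all named genes. GPRC5A, an orphan receptor of lung epithelium, read 21075, 49154, 25138 and 28202, and CAV1 and CAV2 of caveolae read 15309 to 24512 and 1363 to 2441. AGER, PDPN, AQP5 and HOPX, more specific to the flat cell, read 268 to 484, 17 to 25.4, 14 to 23 and 14 to 20.7. No club cell marker of 9 and no ciliated cell marker of 14 was bright. The ciliated cell list did not hold DNALI1, the axonemal dynein light chain named above, which was bright at 51322 to 62469. SCGB1A1, the club cell secretoglobin, read 16.8 to 99.6 and FOXJ1, the regulator of motile cilia, read 263 to 324. DNAI2, a dynein intermediate chain of cilia, read 751, 710, 673 and 851. It was above the upper quartile on 3 of 4 arrays, and bright when arrays were centred on their median. Goblet cell genes were bright in 2 of 10 cases, 20%, TFF1 at 828 to 3879 and AGR2 at 775 to 2611, while MUC5AC and MUC5B stayed at 52.6 to 141 and 7.98 to 9.50. Basal and squamous genes were bright in 1 of 12 cases, 8.33%, KRT15 at 630 to 5591 and in the middle class after that centring, with TP63 at 81.2 to 131 and KRT5 at 14.5 to 19.5.

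Liver-type secreted proteins, the plasma proteins of hepatocytes, were bright in 7 of 26 cases, 26.9%, near the 28.4% of all named genes. C3, the central complement protein, read 5702 on siCtrl, 6973 on siPML, 13072 on the vector array and 12746 on WDR4. RBP4, the retinol carrier, read 6350, 6677, 3995 and 3264. FGA of fibrinogen read 5597, 6892, 1469 and 1277, and FGB read 3835, 2072, 182 and 164, so that these were higher on the siRNA arrays. A second FGA probe read 63 to 309. ALB and AFP read 14 to 36.5 and 44.1 to 98.2. Endoderm transcription factors were bright in 5 of 21 cases, 23.8%, ELF3, CEBPB, FOXA2, CEBPA and KLF5. FOXA2, a pioneer factor of lung and liver, read 6434, 6323, 7815 and 6137, whereas FOXA1 read 296 to 336 and GATA6 62.5 to 148. Intestine and stomach genes were bright in 1 of 18 cases, 5.56%, ALPI at 912 to 1413, with CDX2 at 23.5 to 78.8 and VIL1 at 9.98 to 15. Of 6 placental genes INSL4 was bright, at 723 to 3240.

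Neuroendocrine genes were bright in 3 of 14 cases, 21.4% against the 28.4% of all named genes. UCHL1, a ubiquitin hydrolase of neurons and many carcinomas, read 41931, 50289, 34062 and 34400. ENO2, the neuronal enolase, read 6108 to 7119 and CHGB, a granin, 1449 to 2228. CHGA, SYP and NEUROD1, more usual in diagnosis, read 155 to 308, 23.9 to 39 and 6.0 to 11.

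Markers of cells that a culture of this line should lack were seldom bright, against 28.4% of all named genes. No T cell gene of 14, no B cell gene of 9, no endothelial gene of 13 and no erythroid gene of 8 was bright. In the same order 42.9%, 44.4%, 23.1% and 25% of them were dim, against 15.8% of all named genes. The list medians lay at percentiles 20.5, 22.6, 33.7 and 39.7. CD3E read 10 to 18.3, PTPRC, the leukocyte common antigen, 4.54 to 7.5, and PAX5 4.49 to 6.03. CD3D read 644 to 790 on one probe and 1.49 to 5.01 on the other. Myeloid genes were bright in 2 of 17 cases, 11.8%, and dim in 4, 23.5%. The bright ones were CD14, a lipopolysaccharide co-receptor, at 9183, 2852, 7453 and 5205, and S100A9 at 1114 to 2634. SPI1 and CSF1R, which define the lineage, read 5.0 to 9.03 and 12 to 15.8. Among 8 genes that set embryonic kidney lines apart, 1 was bright and 1 was dim, 12.5% each. SIX2 was the bright one, with 9782, 9280, 9717 and 10287, and PAX2, PAX8, SALL1 and EYA1 read 9.98 to 75.1.

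Features for which A549 cells are known were examined in 5 further lists. The 3 genes of the region reported as deleted in this line were low. CDKN2A, an inhibitor of cell cycle kinases, read 32, 47.9, 24 and 42.1 on siCtrl, siPML, vector and WDR4. CDKN2B read 5.52 to 7.06 and MTAP, a methionine salvage enzyme, 8.52 to 15. Their second probes read at most 7.52 for CDKN2A and 2.54 for MTAP. Measured neighbours in the gene order of chromosome 9 were looked up after these values were seen. On one side IFNE read 111, 209, 48.1 and 44.5, IFNA1 read 58.1 to 76.7, IFNA8 10 to 15 and IFNA2 7.0 to 9.44. On the other DMRTA1 read 362 to 749, ELAVL2 7.49 to 11, TUSC1 9.98 to 16 and CAAP1 43.1 to 73.5. The genes altered in A549 that could be measured, STK11, SMARCA4 and KEAP1, were in the middle class at 405 to 1044, 318 to 339 and 253 to 363. An intensity does not show whether a transcript is intact.

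NRF2 targets were bright in 23 of 31 cases, 74.2% against 28.4% of all named genes, with a median at percentile 95.6. AKR1C3, ALDH1A1 and FTL were at the limit. AKR1C1, a hydroxysteroid dehydrogenase, read 63670, 65732, 53642 and 60272, while its second probe read 7.02 to 8.97. AKR1B10, a reductase of retinal and other carbonyls, read 65566, 48358, 32120 and 26428, and ALDH3A1 read 58534, 40626, 14392 and 9523, so that both were highest on siCtrl. TXNRD1, thioredoxin reductase, read 25256, 22876, 31330 and 35476. TKT, TALDO1 and PGD of the pentose phosphate pathway had lowest intensities of 35747, 13790 and 12517. GCLM and GCLC, the subunits of glutathione synthesis, were not bright, at 514 to 1405 and 290 to 372. NQO1, a common readout of NRF2, read 18.9, 16.8, 13 and 27.5 on its probe, in the range of olfactory receptors.

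Receptor tyrosine kinases were bright in 5 of 31 cases, 16.1% against 28.4% of all named genes. MET, the receptor of hepatocyte growth factor, read 4163, 6768, 5872 and 7326, and AXL, that of GAS6, read 3834, 5078, 7090 and 8539. IGF1R, DDR1 and FGFR1 had lowest intensities of 3706, 3367 and 2529. EGFR read 536, 1296, 941 and 964 and missed the bright class through siCtrl. ERBB2 read 163 to 268, ALK 113 to 226, and ROS1 and RET 20.5 to 65.

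Secreted growth and matrix factors were bright in 16 of 31 cases, 51.6% against the same 28.4%. After MIF at the limit and IGFBP3, the highest were FN1, GDF15, DKK1 and SLPI. GDF15, a stress cytokine, read 13808, 20352, 30161 and 29296, and DKK1, a Wnt inhibitor, read 20939, 16465, 17145 and 13331. SLPI, a protease inhibitor of airway secretions, read 13271 to 20995. VEGFA read 932 to 2122 and 273 to 602 on its second probe, whereas THBS1, TIMP3 and INHBA read 95.5 to 113, 5.98 to 18 and 5.49 to 33.1.

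Levels were similar over the arrays for most bright genes. Of 5186 bright genes, 4035 had a highest intensity at most 2-fold above the lowest, 77.8%, and the median range was 1.57-fold. A narrow range is in part built in, since the bright class leaves out genes that fall below the upper quartile on any array. The share within 2-fold was not computed over all named genes. The narrowest was MCRIP2, with 3058, 3097, 3130 and 3092, a range of 1.02-fold. DLK2, FKBP11, RHOB and SON followed, with ranges of 1.03-fold to 1.05-fold. SON, a scaffold of nuclear speckles, read 7571, 7445, 7626 and 7292.

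**Figure D4:**
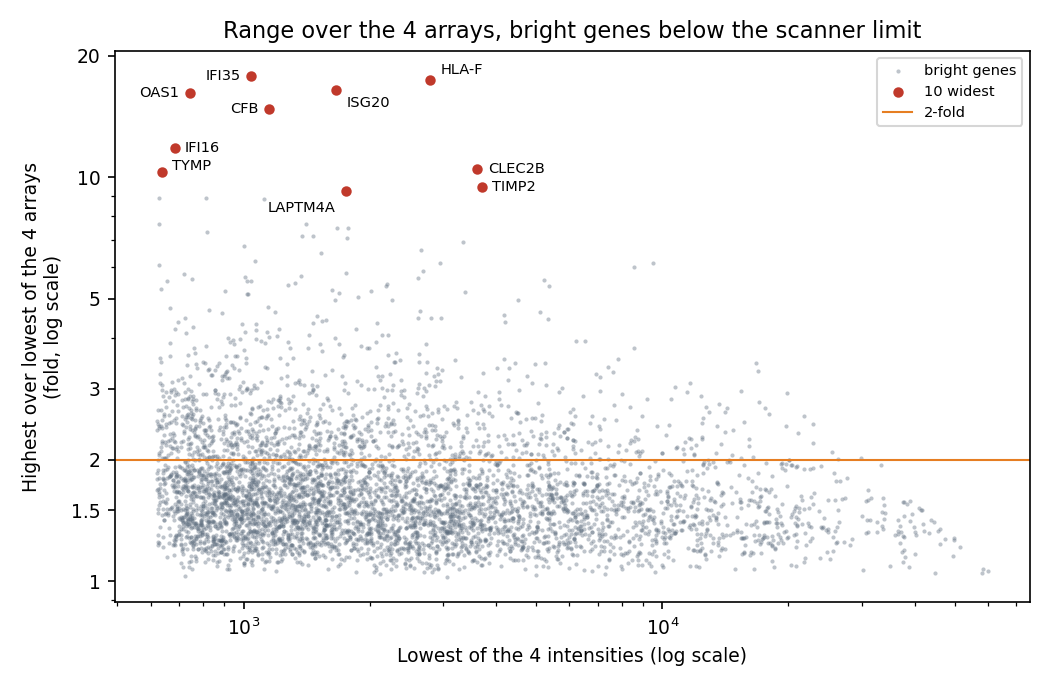
Highest over lowest intensity of the 4 arrays (fold, log scale) against the lowest intensity (log scale) for 5121 bright genes below the scanner limit. Most points lie below the line at 2-fold, and the 10 widest, in red, range from 9.24-fold for LAPTM4A to 17.8-fold for IFI35.

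Some bright genes differed widely. IFI35, an interferon-induced protein, read 3364 on siCtrl, 1044 on siPML, 15699 on the vector array and 18604 on WDR4. HLA-F, an HLA class I protein, read 2790, 2954, 40449 and 48418, and OAS1, a sensor of double-stranded RNA, read 1330, 745, 10136 and 12032. ISG20, CFB, IFI16 and TYMP had the same order, with the vector and WDR4 arrays above both siRNA arrays. CLEC2B, a C-type lectin, differed in that siPML stood alone, with 37793 against 3614, 6100 and 8123. TIMP2 and LAPTM4A were lowest on siPML, at 3703 and 1758, against at least 18853 and 14036 on the other arrays. The kind of transfection, the culture and the treatment cannot be told apart here.

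Features that the ranking did not use differed with level. CpG content, the observed over the expected number of CpG in the 300-base promoter, had a median of 0.858 in 4368 bright genes with a promoter, 0.757 in 8008 of the middle class and 0.407 in 2203 dim genes. In 233 olfactory receptors it was 0.124. Median GC content was 65.7%, 63.3% and 56.0% in bright, middle and dim genes. GGGCGG, the GC box bound by SP1, was found on either strand in 71.8%, 59.7% and 38.7% of them. The share was 60.2% in all named genes with a promoter and 44.6% in all promoters of the table, which include genes not measured here. CCAAT, on either strand, was found in 37.5%, 35.7% and 36.0%, with 36.3% in named genes and 35.7% in all promoters, and so showed no such order. AKR1C3 and ANXA1, both at the limit, had no CpG in that window.

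TATAAA, at 40 to 20 bases before the start on the gene's strand, was found in 1.81% of bright, 3.52% of middle and 5.95% of dim genes. The share was 3.37% in all named genes with a promoter and 2.54% in all promoters. At the very top the share was larger again. From percentile 90 to 95 it was 1.17% and above percentile 95 it was 3.81%, and 5 of 88 genes of the top 100 had it, 5.68%. These are matches of letters in a window, not sites shown to act, and promoters of a family share ancestry.

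**Figure D5:**
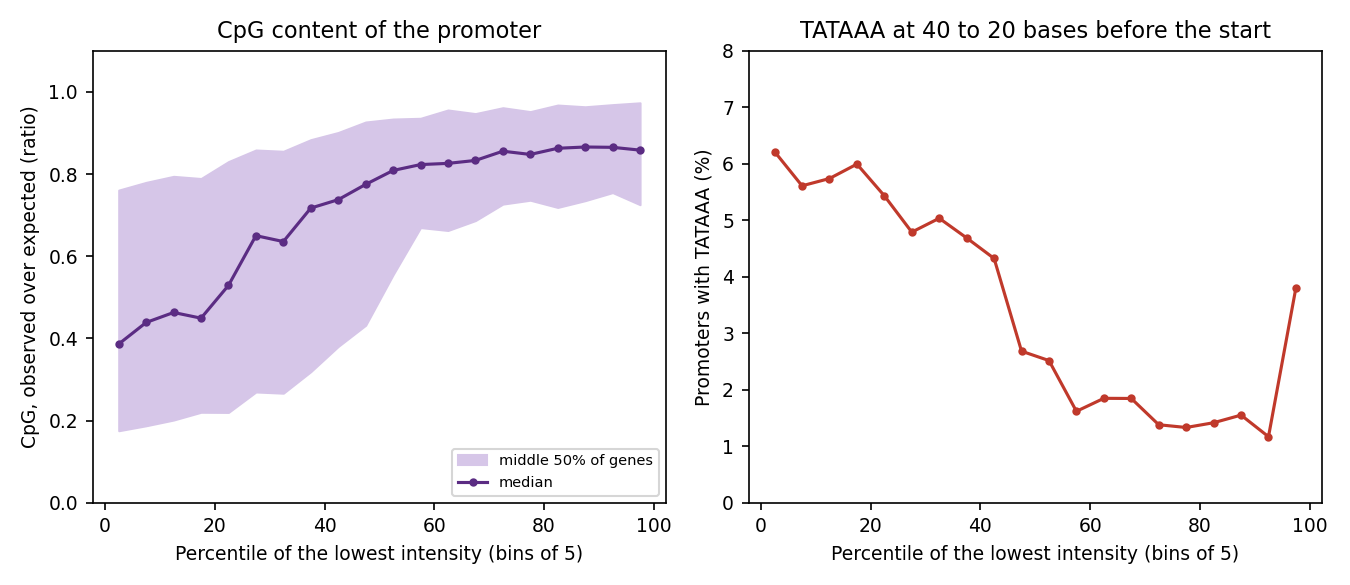
Promoter features against the percentile of a gene's lowest intensity, in bins of 5 percentiles. The CpG ratio (left; line, median; area, middle 50% of genes) climbs from 0.386 in the lowest bin to 0.858 in the highest, and the share with TATAAA (right) falls from 6.21% to 1.17% and is 3.81% in the last bin.

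Gene span was shortest at the top. The median distance from start to end of protein-coding genes was 3.39 kb for the 23 genes at the limit and 6.79 kb for the top 100, against 26.7 kb for bright, 29.5 kb for middle and 20.9 kb for dim genes. Without ribosomal proteins the top 100 had a median of 9.15 kb. Olfactory receptors were short as well, at 2.08 kb, so that a short span did not go with a high level in general.

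Protein-coding genes were bright in 29.4% of 17471 cases and long non-coding RNAs in 4.96% of 423. Of the latter 21 were bright. SNHG29, a host of small nucleolar RNAs, read 43895, 62150, 45361 and 51114 and was in the top 100. SNHG32 and SNHG1 followed with 16877 to 56090 and 6541 to 25765. Across chromosomes 1 to 22 and X, the bright share of protein-coding genes ran from 22.7% on chromosome 4 to 34.9% on chromosome 17.

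The thresholds cut through a continuous scale. Just inside the bright class lay CDC27, TTPAL and CYB5D2, and just outside ZNF629, RAB37 and HOXB6. CYB5D2 read 767, 625, 757 and 709, and ZNF629 read 685, 893, 1057 and 709, short of the WDR4 quartile by less than 1 unit. At the dim threshold TUBB1, EPC1 and INHBA-AS1 lay inside and ACVR1C, GIMAP8 and IRAG1-AS1 outside, all between 6.43 and 26.5 units. At the scanner limit ALDH1A1 was the last gene inside, at 65075 on vector, and RPS21 the next outside, at 64420 on WDR4.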

How the data were processed

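Total RNA was amplified and labelled with Cy5, per the labels' protocols, and the authors deposited 1 intensity per probe and array. No source used here names the scanner, the background correction or a normalization. A linear scale with background subtracted was read from the intensities, which reached from about -1 to near 65535, the 16-bit limit. Values above 65535 on siCtrl, siPML and the vector array are not given by subtraction alone, so a further step is not known. The number of arrays limits their precision. Nothing was rescaled for the main results.

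Of 31741 probes, 24658 carried 1 gene symbol in the platform annotation, 1002 several and 6081 none. RefSeq's list of genes and synonyms gave 2177 probes an updated symbol, and 77 stayed unmatched. Each of 18255 genes was represented by the probe with the highest mean log2(intensity + 1). Levels were described by counts, medians and ranges over the 4 arrays. There were no replicates, so no test was run. All 4 per-sample columns of the deposited table were used.

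Genes were named by a written rule: those at the limit, the following 30, in each list up to 6 members with the highest and the lowest values, members of lineage and A549 lists, bright members of silent lists, up to 10 widest and 5 narrowest ranges, and 3 genes on each side of a threshold. For room, some of these are given only by counts. Members and lists were chosen with earlier results of these data known. The genes next to CDKN2A and the further probes were chosen after their values were seen.

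Promoters are RefSeq windows of GRCh38.p14, 250 bases before to 50 after the first listed start of a symbol, and 14579 named genes had one. Protein sequences were not used here. The steps were tested on simulated arrays. Python 3.11.15, numpy 2.4.6, pandas 2.3.3 and matplotlib 3.10.9 were used. Alternatives were other thresholds, other choices of probe, quantile normalization, centring on the median and each array left out.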

Additional observations from a re-analysis of the deposited data

Results flagged for a closer look

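Probes that cannot be tied to a single gene symbol carried signal as well. Of 6081 probes with no symbol, 551 were bright on all 4 arrays, 9.06%, and 6 of them were at the scanner limit on all 4. Of 1002 probes with several symbols, 280 were bright on all 4 arrays, 27.9%, and 2 were at the limit. For comparison, 24.2% of the 24658 probes with 1 symbol were bright. There are no control samples free of these signals, and the genes behind the probes are not identified here. They were left out of every count above. No group held enough arrays for a search for outlying samples.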

How the results depend on the processing

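The count at the scanner limit was 33 at a limit of 60000 and 15, against 23, when a gene's probes were averaged, and 23 to 26 with an array left out. Bright genes numbered 1974 above the upper decile, against 5186, and 5273 to 5388 with an array left out. Dim genes numbered 1004 below the lowest decile, 6562 below the median and 11187 below the 95th percentile of olfactory receptors, against 2880, and 2939 to 3006 with an array left out. A range of 1.5-fold left 2216 bright genes, against 4035 within 2-fold, and leaving out an array gave 4284 to 4750.

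The other settings kept these counts over all genes within 1.5 times, among them quantile normalization, centring and quartiles over named genes. Of the top 100, 93 remained when ranked by the mean, 96 under quantile normalization, 72 with the mean over probes, and 95 to 99 with an array left out. The number of lists with more bright members than all genes was 15, or 21 at the upper decile, and 15 or 16 with an array left out. Of 1149 genes in the lists or among those named at the top, 39 changed class with the mean over probes, 0 under quantile normalization and 12 with centring. With centring SFTPC and AQP5 were among the genes that left the dim class. KRT15 and APOE left the bright class, and DNAI2, RPL32 and RPS3A entered it. Of 1034 recomputed counts of bright or dim members of a list, 158 moved by more than 1.5 times and 876 did not. No paired analysis was possible because each group has 1 array and no test was run. Values at the limit, and dim values near background, have no order.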
